A study of Homo sapiens with 6 samples.

Results

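The 9 genes described here encode matrix metalloproteinases (MMP1, MMP2, MMP14), the plasminogen activators (PLAU, PLAT) with the urokinase receptor (PLAUR), and tissue inhibitors of metalloproteinases (TIMP1, TIMP2, TIMP3). They were chosen by symbol from a transcript table of 27408 genes. The table lists 21 transcripts for them. Levels were measured by RNA sequencing of 6 cultures of human pancreatic cancer cell lines, PANC-1 and MIA-PaCa2. In each line 1 library came from cells overexpressing ESRP1, 1 from cells overexpressing ESRP2, and 1 from cells labelled LPCX control. ESRP1 and ESRP2 are epithelial RNA-binding proteins that regulate splicing, and the series was set up to study their part in pancreatic cancer progression. All 6 cultures were grown in DMEM with 10% fetal bovine serum. The labels list no added agent and do not say whether an overexpressing line was 1 clone or a pool.

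Matrix metalloproteinases are made as inactive precursors and cleave collagens and other matrix proteins. MMP14 sits in the plasma membrane, where it activates pro-MMP2 in a complex with TIMP2, while at higher TIMP2 levels its activity is blocked. Urokinase (PLAU) bound to its receptor PLAUR converts plasminogen to plasmin at the cell surface, and plasmin degrades fibrin and activates several pro-MMPs.

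Each group held 1 library, so a comparison within a line has no replicate and is given as a ratio without a p-value. Levels are in TPM (transcript abundance scaled for transcript length and library total). No read totals were given, so the depth behind a value is unknown. ESRP1 was at 491 TPM in PANC-1 ESRP1 cells and 367 TPM in MIA-PaCa2 ESRP1 cells, and at most at 0.261 TPM in the other 4 libraries. ESRP2 was at 308 TPM in PANC-1 ESRP2 cells and 197 TPM in MIA-PaCa2 ESRP2 cells. Without introduced ESRP2 it stood at 34.8 to 37.7 TPM in PANC-1 and at no more than 0.106 TPM in MIA-PaCa2. The MIA-PaCa2 ESRP2 library was matched to a column whose heading names a construct "ESRP12", by elimination. All 7 epithelial markers examined reached 1 TPM in PANC-1 and 4 of 7 did in MIA-PaCa2, where EPCAM was listed at 0. Their sum was 1828 to 2043 TPM in PANC-1 and 3442 to 4294 TPM in MIA-PaCa2, mostly from KRT8, KRT18 and KRT19. KRT8 and KRT18 were higher in MIA-PaCa2, and the rest of these markers were higher in PANC-1. Fibroblast markers summed to 68.2 to 109.6 TPM in PANC-1 and 126 to 135 TPM in MIA-PaCa2, almost all from COL1A1 in PANC-1 and from COL1A2 in MIA-PaCa2. Leukocyte markers summed to 296 to 365 TPM in PANC-1 and 27.5 to 34.7 TPM in MIA-PaCa2, mostly from the lysosomal gene CD68. LYZ was at 9.84, 7.70 and 3.62 TPM in the MIA-PaCa2 ESRP1, ESRP2 and LPCX libraries and at most at 0.241 TPM in PANC-1. CD14 did not pass 0.899 TPM, PTPRC did not pass 0.563 TPM and CD3E did not pass 0.121 TPM. Endothelial markers summed to at most 0.614 TPM in PANC-1 and 3.23 TPM in MIA-PaCa2. Acinar markers summed to at most 0.729 TPM in PANC-1 and were at 0 in MIA-PaCa2.

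The lines carried different mixtures of these genes. In PANC-1 the order of levels was PLAU, TIMP1, TIMP2, MMP2, PLAUR and MMP14, each with a range over the 3 libraries clear of its neighbour's. MMP1 and PLAT followed with ranges that overlapped, and TIMP3 came last. In MIA-PaCa2 the order was TIMP2, TIMP1, PLAU and PLAUR, again with separate ranges. MMP1 and MMP14 came next with overlapping ranges, then PLAT, and then MMP2 and TIMP3, whose ranges also overlapped. Except for TIMP3, every gene of the 9 had 3 PANC-1 values that did not overlap the 3 MIA-PaCa2 values. The same holds for 79.4% of the 11829 genes that reached 5 TPM in 2 or more libraries (43.1% with PANC-1 above, 36.3% with PANC-1 below), so a lack of overlap is what most genes show between these lines.

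**Figure D1:**
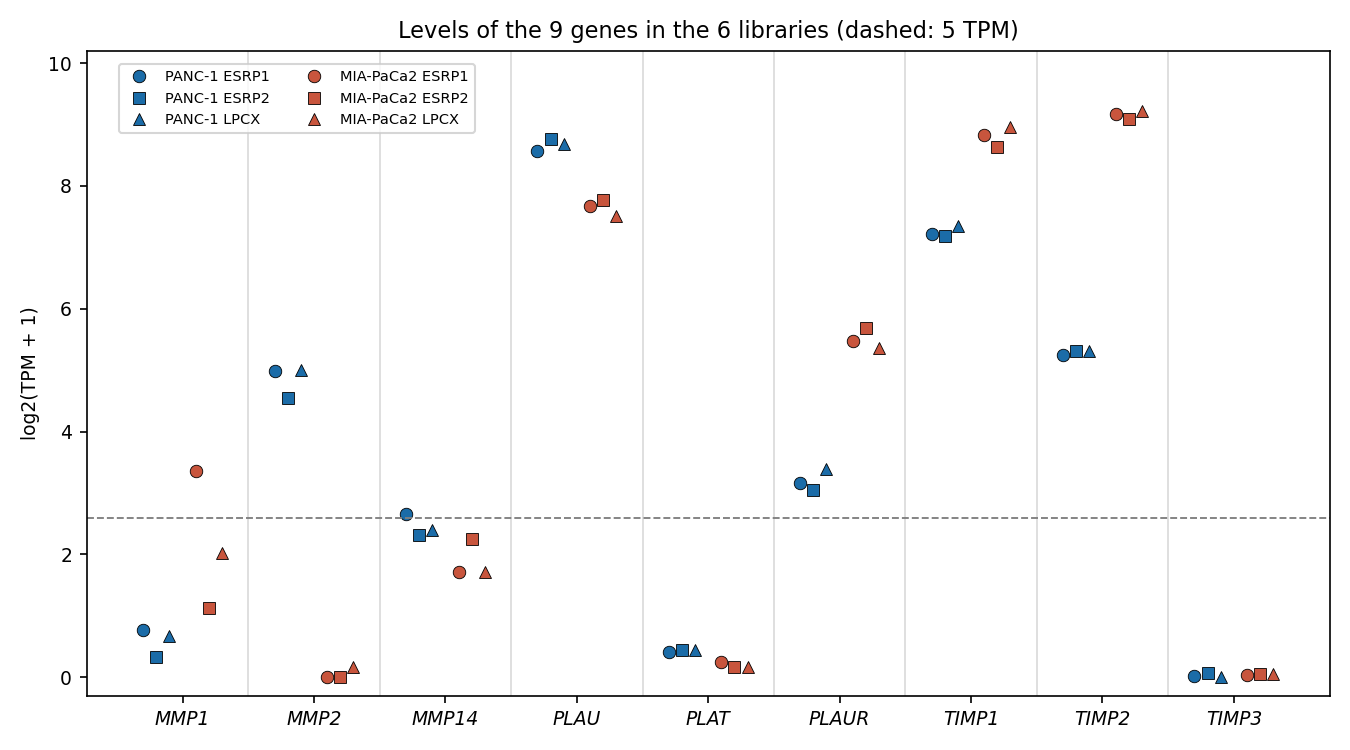
Level of each of the 9 genes as log2(TPM + 1) in the 6 libraries, with PANC-1 in blue to the left of MIA-PaCa2 in red and the construct given by the marker shape; the dashed line is 5 TPM. MMP2 sits between 22.3 and 31.2 TPM in PANC-1 and at or below 0.118 TPM in MIA-PaCa2, while TIMP2 and PLAUR stand higher in MIA-PaCa2.

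The test between the lines used limma on log2(TPM + 1) with cell line and construct as terms over all 6 libraries. It called 78.8% of the 11829 genes at an adjusted p (Benjamini-Hochberg) of 0.05, with 43.1% higher and 35.6% lower in PANC-1. Of the 9 genes, 5 entered this fit and those 5 were called, which is near that background. The size of each difference is therefore given with the share of all genes that lay as far in the same direction. MMP2 entered the fit only through its PANC-1 libraries. In these bulk samples, fewer cells expressing a gene and less RNA per cell cannot be told apart.

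MMP2, gelatinase A, which cleaves type IV collagen and gelatin, was the protease with the clearest separation. It measured 30.6 TPM in PANC-1 ESRP1 cells, 22.3 TPM in PANC-1 ESRP2 cells and 31.2 TPM in PANC-1 LPCX cells. In MIA-PaCa2 it was listed at 0 with ESRP1, at 0 with ESRP2 and at 0.118 TPM with LPCX. All 3 PANC-1 libraries were thus high and all 3 MIA-PaCa2 libraries at or near the bottom of the scale. The limma difference was 4.79 ± 0.128 on the log2(TPM + 1) scale (SE, 3 libraries per line), given as a description because of the filter. Of the 11829 genes, 1.07% lay as far or farther on the PANC-1 side. Against libraries at 0 the size rests on the constant added before the logarithm, and it was 2.70 with 5 TPM added and 7.74 with 0.1 TPM added. The MMP2 gene lies on the plus strand of chromosome 16, at chr16:55389700-55506691 (GRCh38, GENCODE 29).

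Almost all MMP2 RNA in PANC-1 was 1 transcript, NM_004530. Its share of the gene was 98.4% with ESRP1, 99.9% with ESRP2 and 91.3% with LPCX. The rest of the PANC-1 LPCX signal was NM_001302509 at 5.70% and NM_001302508 at 3.04%. These shares are single-library estimates with no error.

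MMP1, the interstitial collagenase, was low in both lines and varied most between constructs. It stood at 0.713 TPM in PANC-1 ESRP1, 0.253 TPM in PANC-1 ESRP2 and 0.591 TPM in PANC-1 LPCX. In MIA-PaCa2 it was at 9.21 TPM with ESRP1, 1.19 TPM with ESRP2 and 3.08 TPM with LPCX. Only the MIA-PaCa2 ESRP1 library passed 5 TPM, so the gene was left out of the fit above. In a fit with a minimum of 1 TPM, which took in 15108 genes and called 73.9% of them between the lines, the MMP1 difference was -1.58 ± 0.351 (log2, SE, limma). It passed that minimum only through its MIA-PaCa2 libraries, so this value is a description and not a test. Without 1 library it was -1.97 to -1.08. The gene lies on the minus strand at chr11:102789920-102798160. Its exons share up to 99 bases with WTAPP1 on the other strand, which did not exceed 0.0357 TPM. All MMP1 RNA was assigned to NM_002421, and the second transcript listed, NM_001145938, was at 0 throughout.

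MMP14, the membrane-bound activator of pro-MMP2, was low in both lines. PANC-1 had 5.31 TPM with ESRP1, 4.004 TPM with ESRP2 and 4.30 TPM with LPCX. MIA-PaCa2 had 2.29 TPM with ESRP1, 3.75 TPM with ESRP2 and 2.28 TPM with LPCX. The 2 ranges came close, at 4.004 TPM for the lowest PANC-1 library and 3.75 TPM for the highest MIA-PaCa2 library. In the fit with the 1 TPM minimum the difference was 0.57 ± 0.190 (log2, SE, limma adjusted p = 0.0420), and 29.9% of genes lay as far in that direction. The call was lost, at adjusted p of 0.151 to 0.181, without the ESRP1 or the LPCX library of either line.

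PLAU, the urokinase-type plasminogen activator, was among the abundant genes of both lines. PANC-1 had 379.9 TPM with ESRP1, 433 TPM with ESRP2 and 411 TPM with LPCX. MIA-PaCa2 had 204 TPM with ESRP1, 217 TPM with ESRP2 and 182 TPM with LPCX. The mean was 408 ± 26.6 TPM in PANC-1 and 201 ± 17.8 TPM in MIA-PaCa2 (SD over the 3 constructs). The difference was 1.02 ± 0.0727 (log2, SE, limma adjusted p = 7.95e-05), a size reached by 17.9% of genes in that direction. The main transcript, NM_002658, held 92.5 to 94.2% of the gene in every library. PLAU lies on the plus strand at chr10:73909177-73917497, where its exons share up to 401 bases with C10orf55 on the other strand. C10orf55 stood at 6.94, 7.63 and 10.9 TPM in the PANC-1 ESRP1, ESRP2 and LPCX libraries and at 4.40 to 4.86 TPM in MIA-PaCa2. Whether the counting used strand is not given in the sources used here, so reads in that overlap are uncertain between these genes.

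PLAT, the tissue-type plasminogen activator, stayed below 1 TPM in all 6 libraries. It was at 0.333 to 0.360 TPM in PANC-1 and 0.122 to 0.189 TPM in MIA-PaCa2, and it was not tested.

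**Figure D2:**
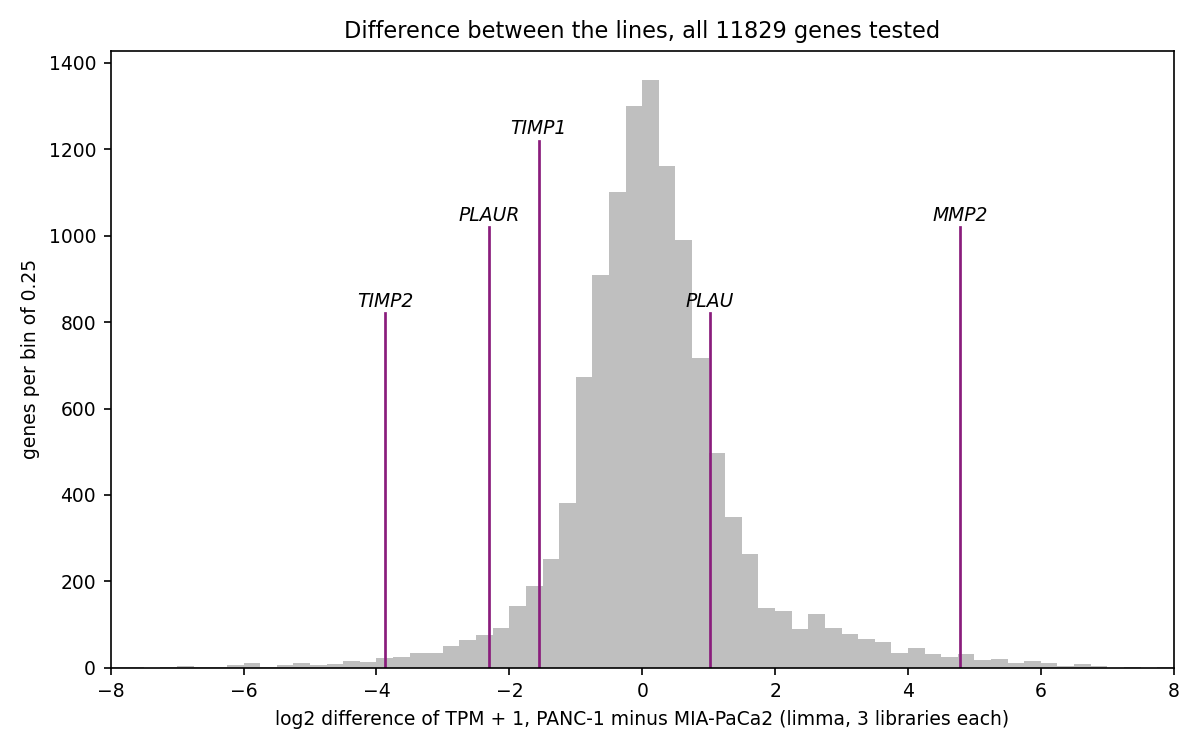
Histogram of the log2 difference between the lines, PANC-1 minus MIA-PaCa2, for the 11829 genes tested, with purple lines at the 5 genes of the system that entered the fit. MMP2 lies at 4.79 and TIMP2 at -3.87, with 1.07% and 0.930% of genes as far out on their sides, while PLAU at 1.02 lies closer to the bulk of genes.

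The receptor went the other way from its ligand. PLAUR, the urokinase receptor, was at 7.93 TPM in PANC-1 ESRP1, 7.27 TPM in PANC-1 ESRP2 and 9.44 TPM in PANC-1 LPCX. It was at 43.5 TPM in MIA-PaCa2 ESRP1, 50.5 TPM in MIA-PaCa2 ESRP2 and 40.0 TPM in MIA-PaCa2 LPCX. The lowest MIA-PaCa2 library was above the highest PANC-1 library by a wide margin. The limma difference was -2.31 ± 0.133 (log2, SE, adjusted p = 3.71e-05), and 3.34% of genes lay as far on the MIA-PaCa2 side. PLAU exceeded PLAUR by 47.9, 59.5 and 43.6 times in the PANC-1 ESRP1, ESRP2 and LPCX libraries. In MIA-PaCa2 that ratio of TPM was 4.69 with ESRP1, 4.31 with ESRP2 and 4.55 with LPCX.

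Among the genes tested, PLAUR was the 1 in which a second transcript held at least 10% in every library. The gene lies on the minus strand at chr19:43646095-43670547. The transcripts differ in the junctions below, copied from the GENCODE 29 transcripts (GRCh38), with the last 30 bases of an exon in lower case and the first 30 bases of the next exon in capitals. NM_002659 joins its exon 6 to a last exon at chr19:43648580-43649143, and its 335 codons encode the form anchored to the membrane by a glycolipid. NM_001005376 joins the same exon 6 to another last exon at chr19:43646095-43646548 and has 281 codons. NM_001005377 skips the 135-base exon at chr19:43655439-43655573. NM_001301037 skips the 147-base exon at chr19:43652225-43652371.
NM_002659 exons 6 and 7: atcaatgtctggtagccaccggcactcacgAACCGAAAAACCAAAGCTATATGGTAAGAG
NM_001005376 exons 6 and 7: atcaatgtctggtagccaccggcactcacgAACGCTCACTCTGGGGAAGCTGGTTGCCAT
NM_001005377 exons 4 and 5: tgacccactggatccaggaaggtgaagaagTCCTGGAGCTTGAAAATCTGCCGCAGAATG
NM_001301037 exons 5 and 6: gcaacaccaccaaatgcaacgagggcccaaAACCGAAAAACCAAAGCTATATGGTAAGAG

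The anchored form, NM_002659, made up 59.1% of PLAUR in PANC-1 ESRP1, 53.3% in PANC-1 ESRP2 and 52.6% in PANC-1 LPCX. In MIA-PaCa2 it made up 78.7% with ESRP1, 71.1% with ESRP2 and 80.0% with LPCX. The form with the other last exon, NM_001005376, held 33.2%, 39.6% and 47.4% in the PANC-1 ESRP1, ESRP2 and LPCX libraries. It held 16.8% in MIA-PaCa2 ESRP1, 25.8% in MIA-PaCa2 ESRP2 and 14.1% in MIA-PaCa2 LPCX. For both transcripts the 3 libraries of a line were apart from those of the other line. In TPM, however, NM_001005376 was at 2.64 to 4.47 in PANC-1 and 5.64 to 13.0 in MIA-PaCa2, so its amount was lower in PANC-1 although its share was larger. The skipping forms held at most 7.67% in any library and were at 0 in several.

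For transcript shares, taken as log2 odds, limma called 17.3% of 12965 transcripts between the lines. NM_002659 was lower in PANC-1 by -1.42 ± 0.209 (SE, adjusted p = 0.0201), and NM_001005376 was higher by 1.55 ± 0.317 (SE, adjusted p = 0.0366). Neither call held without any 1 of the 6 libraries, where the adjusted p was 0.0630 to 0.113, and that of NM_001005376 was also lost with a pseudocount of 0.1 TPM (adjusted p = 0.0608). In PANC-1 these shares rest on a gene total of 7.27 to 9.44 TPM.

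**Figure D3:**
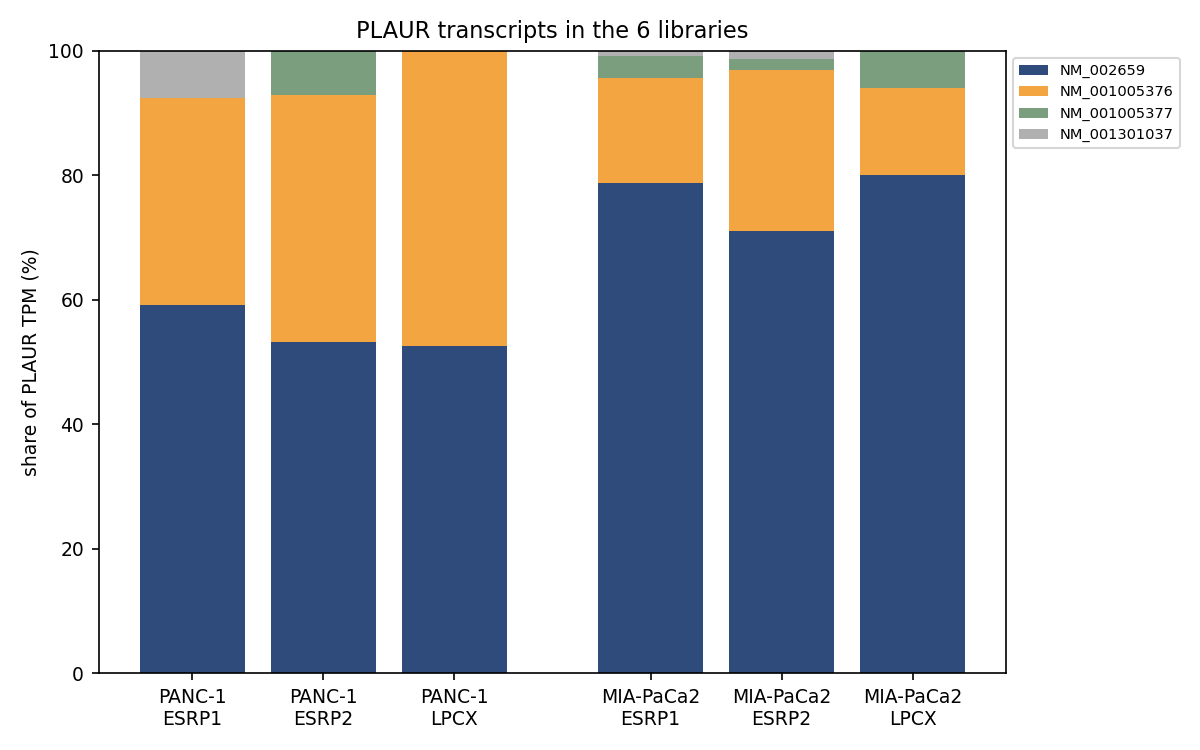
Share of PLAUR TPM held by each of its 4 transcripts, as stacked bars for each library, PANC-1 left of MIA-PaCa2. The dark blue anchored form fills 52.6 to 59.1% of the PANC-1 bars and 71.1 to 80.0% of the MIA-PaCa2 bars, and the orange form with the other last exon fills most of the remainder.

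Both abundant inhibitors were lower in PANC-1. TIMP2, which inhibits MMPs and also bridges MMP14 and pro-MMP2, measured 36.8 TPM with ESRP1, 38.9 TPM with ESRP2 and 38.6 TPM with LPCX in PANC-1. In MIA-PaCa2 it measured 574 TPM with ESRP1, 543 TPM with ESRP2 and 595 TPM with LPCX. The difference was -3.87 ± 0.0605 (log2, SE, limma adjusted p = 1.21e-06), and 0.930% of genes lay as far on that side. By level it ranked 4499 to 4890 of 27408 genes in PANC-1 and 196 to 220 in MIA-PaCa2. Its only listed transcript was NM_003255, and the TIMP2 gene lies on the minus strand at chr17:78852977-78925387. The exons share up to 101 bases with CEP295NL, which reached at most 2.27 TPM in any library, and up to 367 bases with AC022966.1 on the other strand, whose level was not analysed here.

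TIMP1, a broad MMP inhibitor, was at 147 TPM in PANC-1 ESRP1, 145 TPM in PANC-1 ESRP2 and 161 TPM in PANC-1 LPCX. It was at 456 TPM in MIA-PaCa2 ESRP1, 395 TPM in MIA-PaCa2 ESRP2 and 495 TPM in MIA-PaCa2 LPCX. The limma difference was -1.56 ± 0.0642 (log2, SE, adjusted p = 1.24e-05), and 6.62% of genes lay as far on that side. TIMP1 exceeded TIMP2 in PANC-1, where TIMP2 over TIMP1 was 0.251 with ESRP1, 0.268 with ESRP2 and 0.240 with LPCX. In MIA-PaCa2 the order was reversed, with ratios of 1.26, 1.37 and 1.20 for ESRP1, ESRP2 and LPCX. TIMP1 lies on the plus strand at chrX:47582313-47586789.

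TIMP3, the inhibitor that binds to the matrix, was listed at 0 in PANC-1 LPCX and reached at most 0.0439 TPM in PANC-1 and 0.0327 TPM in MIA-PaCa2. These values are too low to order the libraries.

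Summed by role, MMP1, MMP2 and MMP14 together reached 36.6 TPM in PANC-1 ESRP1, 26.6 TPM in PANC-1 ESRP2 and 36.1 TPM in PANC-1 LPCX. The same sum was 11.5 TPM in MIA-PaCa2 ESRP1, 4.94 TPM in MIA-PaCa2 ESRP2 and 5.47 TPM in MIA-PaCa2 LPCX. The 3 TIMPs summed to 184, 184 and 199.8 TPM in the PANC-1 ESRP1, ESRP2 and LPCX libraries. In MIA-PaCa2 they summed to 1029 TPM with ESRP1, 938 TPM with ESRP2 and 1090.0 TPM with LPCX. The protease sum was higher in all 3 PANC-1 libraries, mostly through MMP2 and with MMP1 running the other way. The inhibitor sum was lower in all 3, through TIMP1 and TIMP2. TIMP2 over MMP14, the pair that meets pro-MMP2 at the membrane, was 6.93 to 9.71 in PANC-1 and 145 to 261 in MIA-PaCa2. These are RNA levels, and no protein or activity was measured here.

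**Figure D4:**
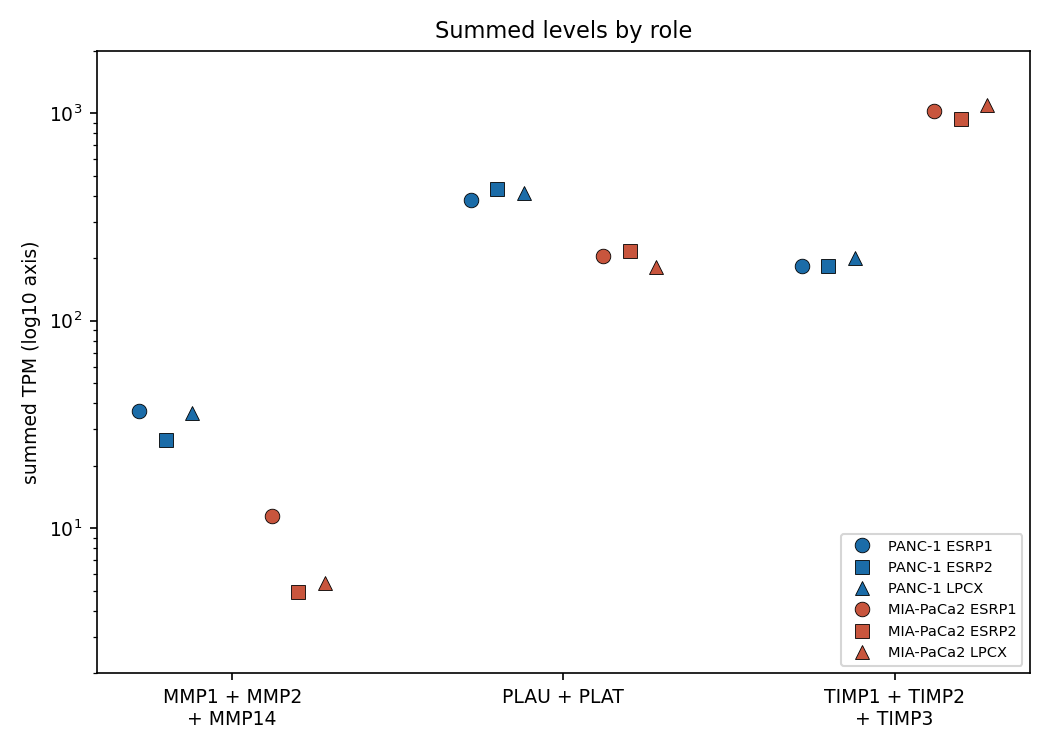
Summed TPM of the 3 MMPs, the 2 plasminogen activators and the 3 TIMPs in each library on a log10 axis, with PANC-1 in blue left of MIA-PaCa2 in red and markers for the constructs. The protease sums are 26.6 to 36.6 TPM in PANC-1 and 4.94 to 11.5 TPM in MIA-PaCa2, and the inhibitor sums are 184 to 199.8 TPM in PANC-1 and 938 to 1090.0 TPM in MIA-PaCa2.

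In the limma fit over both lines 0 of the 5 genes passed for ESRP1 against LPCX, where 0.00845% of all genes were called, which is ESRP1 itself. For ESRP2 against LPCX the count was 0 of 5, with 0.0169% of all genes called, which are FLJ23867 and SNORA63B. The introduced ESRP2 was not called, although it rose from 34.8 to 308 TPM in PANC-1 and from 0.0704 to 197 TPM in MIA-PaCa2. The fit can thus miss a large change, so 0 of 5 says little about these genes. For ESRP1 against ESRP2 the count was again 0 of 5, with 0.00845% called. At an unadjusted p of 0.05 the fits called 820, 1634 and 497 genes, and of the 5 genes TIMP1 alone was among them, for ESRP2 against LPCX. With 2 residual degrees of freedom, a p that misses the threshold does not show that a level was equal.

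PLAU differed from LPCX by 0.03 with ESRP1 (log2, limma 95% interval -0.20 to 0.25, adjusted p = 0.935) and by 0.16 with ESRP2 (-0.06 to 0.39, adjusted p = 0.437). TIMP2 differed by -0.06 with ESRP1 (95% interval -0.25 to 0.13) and by -0.06 with ESRP2 (-0.25 to 0.12). PLAUR differed by -0.05 with ESRP1 (-0.46 to 0.36) and by less than 0.01 in size with ESRP2 (-0.41 to 0.41). MMP2 differed by -0.09 with ESRP1 (-0.49 to 0.30) and by -0.31 with ESRP2 (-0.71 to 0.08, limma adjusted p = 0.416). The intervals of these 4 genes lie inside a 2-fold change in either direction, though MMP2 had 2 of its 6 libraries at 0. For MMP2 the size depends on the constant added before the logarithm. With 0.1 TPM added it differed by -0.58 with ESRP1 and -0.80 with ESRP2, so the 2-fold bound is not read for MMP2.

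TIMP1 was below LPCX in all 4 comparisons, although the pairs within a line share 1 LPCX library. MMP2 was also below LPCX in all 4, with MIA-PaCa2 values at or near 0 TPM. The share of all genes with this trait was not counted. The TIMP1 ratio of TPM to LPCX was 0.911 in PANC-1 ESRP1, 0.899 in PANC-1 ESRP2, 0.921 in MIA-PaCa2 ESRP1 and 0.799 in MIA-PaCa2 ESRP2. Over both lines the TIMP1 difference was -0.13 with ESRP1 (log2, limma 95% interval -0.32 to 0.07, adjusted p = 0.681). With ESRP2 it was -0.24 (-0.44 to -0.04), which had an unadjusted p of 0.0264 and an adjusted p of 0.332 in limma and so did not pass.

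Within lines, a gene was counted when it differed by at least 2-fold on TPM + 1 and had at least 5 TPM in either library. In PANC-1, 0 of 6 genes of the system did so with ESRP1, against 1.51% of all genes, and 0 of 5 with ESRP2, against 1.96%. In MIA-PaCa2, 1 of 5 did with ESRP1, against 1.28% of all genes, and 0 of 4 with ESRP2, against 1.62%. The 1 gene was MMP1, which passed the level filter only through its ESRP1 library. Its ratio was 1.32 on the log2(TPM + 1) scale, or 2.99 times on TPM, and it fell under 2-fold, to 0.82, when 5 TPM was added. With ESRP2 the MIA-PaCa2 ratio of MMP1 to LPCX was -0.90 (log2), or 0.387 times on TPM. In PANC-1, where MMP1 stayed below 1 TPM, the log2 ratios were 0.11 with ESRP1 and -0.34 with ESRP2.

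Set directly against each other, the ESRP1 and ESRP2 libraries differed in MMP1 by 0.45 (log2) in PANC-1 and by 2.22 in MIA-PaCa2, where 1.13% of all genes in PANC-1 and 1.67% in MIA-PaCa2 differed by at least 2-fold. In the fit with the 1 TPM minimum this difference was 1.34 ± 0.430 (SE, 95% interval 0.23 to 2.44, unadjusted p = 0.0267). It did not pass over 15108 genes (limma adjusted p = 0.964), and 0.00662% of genes were called. Without 1 library it was 0.59 to 2.08. MMP1 against LPCX was 0.72 ± 0.430 with ESRP1 and -0.62 ± 0.430 with ESRP2 in that fit (SE, limma adjusted p = 0.742 and 0.585). Without the MIA-PaCa2 ESRP1 library the ESRP1 difference was -0.03, so its direction rests on that library.

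MMP2 was lower with ESRP2 in PANC-1, with a ratio of TPM to LPCX of 0.716, against 0.981 with ESRP1. MMP14 in MIA-PaCa2 was at 1.65 times LPCX with ESRP2 and 1.01 times with ESRP1. PLAUR was below LPCX in PANC-1, at 0.841 times with ESRP1 and 0.770 times with ESRP2, and above it in MIA-PaCa2, at 1.09 and 1.26 times. None of these single-library ratios reached 2-fold.

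**Figure D5:**
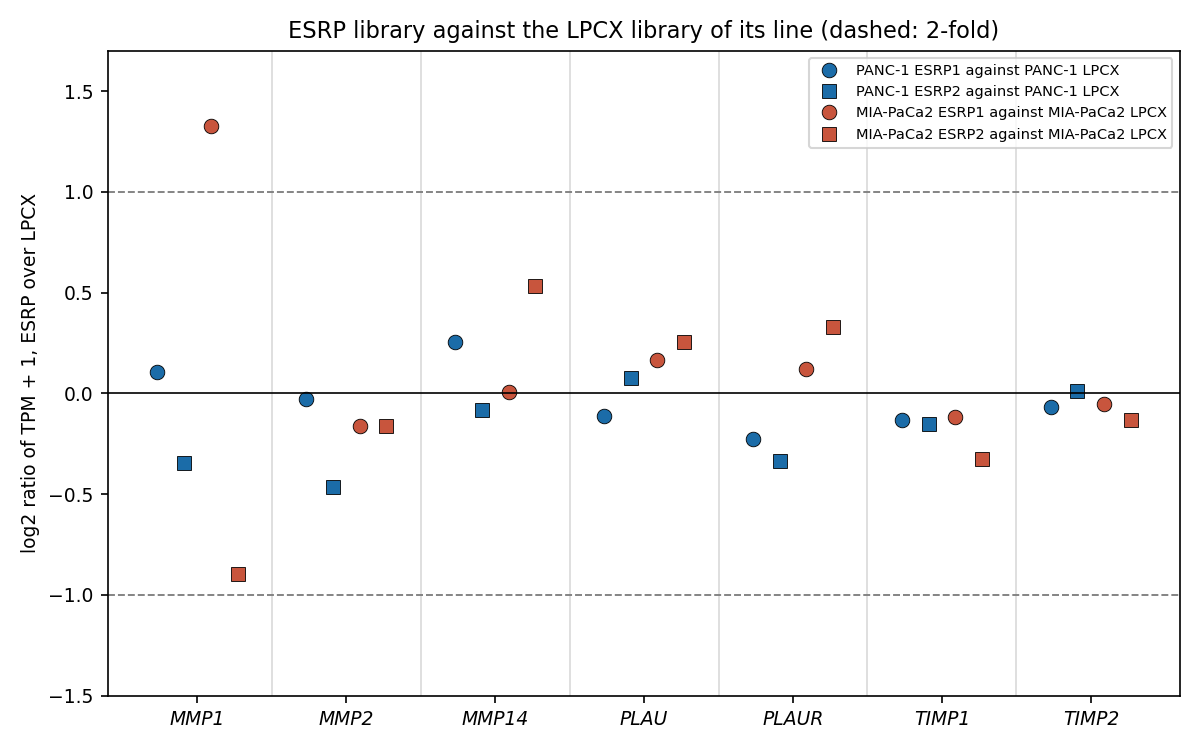
Log2 ratio of TPM + 1 of each ESRP library to the LPCX library of its line for the 7 genes at 1 TPM or more in at least 2 libraries; dashed lines mark 2-fold in either direction. The points lie inside the dashed lines except MMP1 in MIA-PaCa2 ESRP1 at 1.32. TIMP1 and MMP2 each have all 4 points below 0, those of MMP2 in MIA-PaCa2 from values at or near 0 TPM.

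The PLAUR transcript shares moved in opposite directions in the lines. NM_001005376 was lower than in LPCX by -14.2 percentage points in PANC-1 ESRP1 and -7.81 points in PANC-1 ESRP2. It was higher by 2.72 points in MIA-PaCa2 ESRP1 and 11.7 points in MIA-PaCa2 ESRP2. A move of at least 10 points was seen for 10.8% of transcripts in PANC-1 ESRP1, 12.1% in PANC-1 ESRP2, 12.9% in MIA-PaCa2 ESRP1 and 14.7% in MIA-PaCa2 ESRP2. Over both lines 0 of the 3 transcripts tested, those of PLAU and PLAUR, were called for ESRP1 (0.00771% of all transcripts) or for ESRP2 (0%). For NM_001005376 the log2 odds differed by -0.24 with ESRP1 (95% interval -1.24 to 0.76) and by 0.31 with ESRP2 (-0.69 to 1.31, limma adjusted p = 0.907).

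Genes around the 9 were followed through 5 lists. Of 24 other metalloproteinases, their activator FURIN, the inducer BSG and anchored inhibitors, 7 were tested. Of these, 4 were called higher and 2 lower in PANC-1, beside 43.1% higher and 35.6% lower of all genes, and 13 of the 24 stayed under 1 TPM in all libraries. RECK, a membrane-anchored MMP inhibitor, was at 25.1, 19.4 and 20.9 TPM in PANC-1 ESRP1, ESRP2 and LPCX cells and at most at 0.533 TPM in MIA-PaCa2, opposite in direction to TIMP1 and TIMP2. It entered the fit only through its PANC-1 libraries, so no p is given. MMP17, a glycolipid-anchored MMP, was at 25.4 to 29.6 TPM in PANC-1 and 3.32 to 4.24 TPM in MIA-PaCa2. MMP16, another membrane-type MMP, was at 4.74 to 5.51 TPM in PANC-1 and at most at 0.0141 TPM in MIA-PaCa2. MMP11, stromelysin 3, was at 1.43 to 1.86 TPM in PANC-1 and 11.7 to 13.2 TPM in MIA-PaCa2. MMP17 and MMP16 likewise entered the fit only through PANC-1 libraries, and MMP11 only through MIA-PaCa2 libraries. Their calls are descriptions and not tests. FURIN, which cleaves pro-MMP14, was higher in PANC-1 (0.75) and BSG, which induces MMPs in neighbouring cells, lower (-0.63, log2). MMP9, gelatinase B, did not exceed 0.327 TPM in any library.

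Of 21 other genes of the plasminogen system, 11 were tested, with 4 called higher and 5 lower in PANC-1, beside 78.8% of all genes called in either direction. SERPINE2, protease nexin 1, which inhibits urokinase, was lower in PANC-1, with 1.10, 0.761 and 0.567 TPM in PANC-1 ESRP1, ESRP2 and LPCX cells. It was at 71.1 TPM in MIA-PaCa2 ESRP1, 78.6 TPM in MIA-PaCa2 ESRP2 and 39.0 TPM in MIA-PaCa2 LPCX, with ratios to LPCX of 0.85 and 0.99 (log2), just under 2-fold. Over both lines SERPINE2 did not pass against LPCX (limma adjusted p = 0.658 for ESRP1 and 0.338 for ESRP2). SPINT2, an inhibitor of membrane serine proteases, was at 1103 to 1209 TPM in PANC-1 and 9.08 to 16.3 TPM in MIA-PaCa2, a log2 difference of 6.55. ANXA2, a plasminogen and PLAT binding protein, was higher in PANC-1 (0.96), and LRP1, which clears inhibitor-bound urokinase, was lower (-0.86). SERPINE2 and LRP1 entered the fit only through their MIA-PaCa2 libraries, so their line differences are descriptions.

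Of 20 ADAM and ADAMTS proteases 9 were tested, and 2 were called higher and 7 lower in PANC-1, beside 43.1% higher and 35.6% lower of all genes. ADAMTS15 was at 30.3 to 35.6 TPM in PANC-1 and at most at 0.221 TPM in MIA-PaCa2. The sheddases ADAM9 (-0.77), ADAM15 (-0.77) and ADAM10 (-0.70, all log2) were modestly lower in PANC-1. ADAMTS4, an aggrecanase, was the 1 gene of the 5 lists at 2-fold within a line, at 22.1 TPM in MIA-PaCa2 ESRP2 and 9.64 TPM in MIA-PaCa2 LPCX. In that comparison 4, 10, 8, 12 and 12 genes of the 5 lists were compared, and 1.62% of all genes were at 2-fold. Nothing particular to the lists is read from this 1 gene. Of 20 cathepsins, cystatins and other matrix proteases 13 were tested, with 2 called higher and 6 lower in PANC-1, beside 78.8% of all genes called. CTSC was at 94.9 to 106 TPM in PANC-1 and 592 to 945 TPM in MIA-PaCa2, and LOXL2, a collagen cross-linking enzyme, at 50.2 to 57.6 TPM in PANC-1 and 309 to 354 TPM in MIA-PaCa2. HTRA1, a secreted serine protease, was lower in PANC-1 by -3.28, and CTSD, an abundant lysosomal protease, was higher by 0.74 (log2). ADAMTS15 entered the fit only through its PANC-1 libraries, and ADAMTS4 and HTRA1 only through their MIA-PaCa2 libraries. Their line differences are descriptions. Of the 5 lists, no gene was called for ESRP1 or ESRP2 against LPCX.

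Of 15 AP-1 and ETS transcription factors, the families with known binding sites in many protease promoters, 12 were tested, with 3 called higher and 8 lower in PANC-1, beside 43.1% higher and 35.6% lower of all genes. Calls between the lines are that common, and nothing particular to a list is read from the 5 counts. Each list also counts genes that passed the level filter only through the line where they were higher, here ETV1. FOSL1 was at 348, 344 and 338 TPM in the PANC-1 ESRP1, ESRP2 and LPCX libraries and 141, 138 and 123 TPM in those of MIA-PaCa2 (log2 difference 1.35). ETS2 differed by 4.63 and ETS1 by 1.25. JUND (-1.25), FOSL2 (-0.82), ETV1 (-1.82) and ETV4 (-1.77) were lower in PANC-1.

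PLAUR and TIMP1 each held a match to an AP-1 motif in the 250 bases before the start that RefSeq gives (GRCh38.p14). Windows were found for 5 of the 9 genes, MMP14, PLAU, PLAUR, TIMP1 and TIMP3, and not for MMP1, MMP2, PLAT and TIMP2. The letters TGAGTCA, or TGACTCA on the other strand, occur in 4.20% of 35116 such windows, and the variant TGAGTAA, or TTACTCA on the other strand, in 2.21%. The variant was searched because it is known from the TIMP1 promoter, so its match there was foreseen and the 2.21% does not weigh it. Among the 5 genes TGAGTCA was found in PLAUR alone and the variant in TIMP1 alone. The matches begin 186 and 101 bases before the start and are shown in capitals with 10 bases on each side, on the strand of the gene.
PLAUR chr19:43670339-43670365: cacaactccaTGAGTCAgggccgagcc
TIMP1 chrX:47582325-47582351: ggtgggtggaTGAGTAAtgcatccagg

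GENCODE 29 starts both genes farther upstream than RefSeq, so it places both stretches inside the gene bounds. No binding was measured, and a match is a description of these letters only.

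The genes with the pattern nearest to each of the 5 tested genes were found by the distance between log2(TPM + 1) values over the 6 libraries, each gene centred on its own mean. Most of each distance comes from the line difference, and no test was made. MMP2 was nearest to ADAMTS15 (distance 0.27), which had 32.6 TPM in PANC-1 ESRP1, 30.3 TPM in PANC-1 ESRP2 and 35.6 TPM in PANC-1 LPCX, then to FAM65C and HOXC-AS2. PLAU was nearest to POC5 (0.113), then ZNF446 and LOC105370333. PLAUR was nearest to PRRG4 and SPRY2 (0.202 for each), then LINC00649. TIMP1 was nearest to TNFRSF1A (0.110), then CD99 and DCAKD. TNFRSF1A stood in MIA-PaCa2 at 272 TPM with ESRP1, 233 TPM with ESRP2 and 290.0 TPM with LPCX. It was picked for its closeness to TIMP1 over these same libraries, so a like dip with ESRP2 comes with the choice. TIMP2 was nearest to ADD2 (0.154), then ZNF300 and PNMAL1, all 3 of which were at or below 0.142 TPM in PANC-1.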

How the data were processed

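The deposited table holds TPM per transcript for 6 libraries, made by the authors with Salmon on GRCh38 (hg38), per the submitters' processing notes; the sources used here give neither versions nor read totals. Per the labels' protocols, the TruSeq mRNA kit was used on 2 µg of total RNA per library. Of 67792 lines 8664 were repeats and were dropped, leaving 59128 transcripts, whose TPM were summed by gene symbol. One heading misspells its cell line and another names the construct ESRP12, so the place of that second library rests on elimination.

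Log2(TPM + 1) was fitted with limma 3.58.1 in R 4.3.3 (trend, terms line and construct, 2 residual degrees of freedom) over the 11829 genes that reached 5 TPM in 2 or more libraries. Transcript shares were fitted as log2 odds with 0.5 TPM added, for transcripts with at least 10% of a gene that had at least 5 TPM in every library. Benjamini-Hochberg adjustment covered all features. The libraries of a line are not replicate cultures, so the residual spread measures only how far construct effects differ between lines. The p-values set a mean line or construct difference against that spread and do not measure variation between cultures. The script was tested on simulated data. Alternatives were other pseudocounts and filters, median-ratio scaling (log2 factors of -0.05 to 0.06), no trend, coding transcripts only and leaving out each library. The leave-one-out and pseudocount fits with the 1 TPM minimum were added after seeing the data. All 9 genes and their transcripts at 10% or more are named; from the lists, up to 8 called or preset genes each, of which 1 is not reported here. The genes and lists were chosen with earlier results of these data known.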

Additional observations from a re-analysis of the deposited data

Results flagged for a closer look

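Some values moved in opposite directions in the lines under the same construct. Each rests on 1 library against 1, and the difference was not tested. The share of all genes or transcripts with opposite directions was not counted. Over all genes compared, the median size of the log2 ratio to LPCX was 0.096 to 0.167, and several values below are no larger. On the log2(TPM + 1) scale against LPCX, PLAU with ESRP1 was at -0.11 in PANC-1 and 0.16 in MIA-PaCa2, and PLAUR with ESRP1 at -0.22 and 0.12. With ESRP2, PLAUR was at -0.34 in PANC-1 and 0.33 in MIA-PaCa2, MMP14 at -0.082 and 0.53, and TIMP2 at 0.0093 and -0.13. For transcript shares in percentage points, PLAU NM_002658 with ESRP1 was at -0.142 in PANC-1 and 0.404 in MIA-PaCa2. PLAUR NM_002659 was at 6.48 in PANC-1 and -1.27 in MIA-PaCa2 with ESRP1, and at 0.627 and -8.88 with ESRP2. PLAUR NM_001005376 was at -14.2 in PANC-1 and 2.72 in MIA-PaCa2 with ESRP1, and at -7.81 and 11.7 with ESRP2.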

How the results depend on the processing

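Over 556 recomputed values of the 9 genes and their transcripts, 510 were counted as steady, 17 lost a call (PLAUR shares and MMP14 between the lines), 4 moved and 25 changed sign. The 25 were all construct differences that no fit called, and the cause was not tested; a further 5 within-line ratios, with no test and counted as steady, also changed sign. The 4 that moved were MMP1 in MIA-PaCa2 (0.82 with ESRP1 at 5 TPM added, -1.30 with ESRP2 at 0.1 TPM added) and MMP2 in MIA-PaCa2 (-1.13 with ESRP1 and with ESRP2 at 0.1 TPM added). Of the 25, 21 came with 1 library left out, where ESRP1 against LPCX ran from -0.031 to 1.46 for MMP1, -0.15 to 0.41 for MMP14, -0.24 to 0.048 for MMP2, -0.089 to 0.14 for PLAU and -0.30 to 0.20 for PLAUR (log2). ESRP2 against LPCX ran from -0.14 to 0.60 for MMP14, -0.26 to 0.25 for PLAUR and -0.14 to 0.013 for TIMP2. ESRP1 against ESRP2 ran from -0.47 to 0.27 for MMP14, -0.30 to 0.20 for PLAUR and -0.072 to 0.077 for TIMP2. In log2 odds, NM_002658 ran from -0.021 to 0.074, NM_002659 from -0.17 to 0.40 and NM_001005376 from -0.85 to 0.37 with ESRP1, and NM_001005376 from -0.30 to 0.92 with ESRP2. The other 4 were PLAU with ESRP1 at -0.027 under median-ratio scaling and -0.014 with coding transcripts only, PLAUR with ESRP2 at 0.034 with 5 TPM added, and TIMP2 between ESRP1 and ESRP2 at -0.022 with coding transcripts only. Counts over all genes were less steady, and the cause was not tested. For ESRP2 against LPCX the 2 genes called became 0 with 0.1 TPM added, with no filter, with the 1 TPM minimum and with coding transcripts only, 1 with 5 TPM added or no trend, and 0 to 30 without 1 library. For ESRP1 against ESRP2 the count of 1 became 1 to 23 without 1 library. Of transcript shares, the 1 called for ESRP1 became 0 with 0.1 TPM added, no trend, a 2% minimum or any library left out, and 4 with 2 TPM added; the 0 for ESRP2 became 4 with 2 TPM added. The 2238 called between the lines became 1466 with 0.1 TPM added, 3697 with 2 TPM added and 207 to 401 without 1 library. Genes at 2-fold within a line numbered 168 (PANC-1 ESRP1), 218 (PANC-1 ESRP2), 138 (MIA-PaCa2 ESRP1) and 176 (MIA-PaCa2 ESRP2); with 5 TPM added they were 94, 142, 75 and 109, and with coding transcripts only 16, 28, 25 and 32. The cell line is the block of every fit, and the labels give no replicate numbers to pair further. Depth is unknown, so values under 1 TPM have no stated precision.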
